A study of Mus musculus with 11 samples.

Results

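The genes described here are the nuclear genes for subunits of the mitochondrial respiratory chain in mouse embryonic stem cells (ESCs) that lack, or carry, the BMP type I receptor gene Bmpr1a. They were chosen by symbol, as all genes named Ndufa, Ndufb, Ndufc, Ndufs or Ndufv with the assembly factors left out, Sdha to Sdhd, the Uqcr genes, the subunit genes Cox4 to Cox8, Cycs and Cyc1. The rule itself uses no measured value, but the members were chosen with earlier results of these data known. It found 67 genes on 81 transcript clusters, among 19935 genes with a symbol of their own and 28815 clusters on the array. By complex, 36 carry names of complex I, 4 of complex II, 9 of complex III and 17 of complex IV, and 1 encodes cytochrome c. Ndufb4 and Cox7c lie on clusters shared by several symbols and were not used here.

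Expression was profiled on 11 one-colour arrays in 4 groups. The mutant groups are ESCs labelled Bmpr1a-/- after 3 days in the serum-free differentiation medium N2B27 (n = 3) and mutant ESCs in ESC culture medium (n = 2, numbered 2 and 3). The control groups are wild-type ESCs of the E14 line after 3 days in N2B27 (n = 3) and in ESC medium (n = 3). The labels name several mutant lines, C1-6, Fr124 and Fr88, without saying which line is on which array, and all control arrays are of 1 line, so genotype cannot be told apart from differences between lines. A mutant array numbered 1 in ESC medium was not analysed here. Whether arrays of 1 group stem from different cultures is not stated, and p-values here rest on array-to-array spread that could be technical. Values are log2 expression on a separate baseline per gene, so a level is compared between arrays and never between genes.

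The respiratory chain passes electrons from NADH through complex I, or from succinate through complex II, to ubiquinone, then through complex III and cytochrome c to complex IV, where oxygen is reduced. Complexes I, III and IV pump protons, and the gradient drives ATP synthase. A few core subunits of complexes I, III and IV are encoded in mitochondrial DNA, while all of the subunits described here are made from nuclear genes and imported. Pluripotent cells are known for a strong reliance on glycolysis, and the balance between glycolysis and respiration shifts as they differentiate. In these cultures of mixed cells, fewer cells of a type and less RNA per cell cannot be told apart.

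Bmpr1a itself had log2 values of 0.15, -0.14 and -0.05 in mutant and 0.61, 0.68 and 0.76 in control cells in N2B27, which do not overlap (log2 difference -0.70, SE 0.09, adjusted p 0.00211). In ESC medium its log2 values were -0.03 and 0.00 in mutant and 0.37, 0.16 and 0.25 in control cells, also without overlap, but the difference did not pass the test (log2 difference -0.27, SE 0.10, adjusted p 0.145). Where in Bmpr1a the deletion lies was not checked here. All 8 ESC markers examined were lower in N2B27 than in ESC medium in both genotypes, with median log2 differences of -1.64 in mutant and -2.09 in control cells, and 4 of the 8 were higher in mutant than in control cells in N2B27. Of 6 neural progenitor markers, 2 were higher in N2B27 than in ESC medium in mutant cells, Nes (log2 difference 2.08) and Fabp7 (0.56), and 1 in control cells, Sox1 (0.33). Nes was also higher in mutant than in control cells in N2B27 (1.27), and its medium difference differed between genotypes (interaction 2.11). Of 8 fibroblast and feeder cell markers, Thy1 was higher in N2B27 in mutant (0.83) and control cells (1.10), and in control cells Dcn (0.87) and Pdgfrb (0.29) were higher and Col1a1 was lower (-1.35). Col1a1 (-1.32) and Col1a2 (-0.73) were lower in mutant than in control cells in ESC medium, and Col1a2 (-0.58) in N2B27. The part of these markers in the values of the subunit genes was not tested. In each genotype the N2B27 array numbered 1 gave the lowest median log2 value over the 67 subunit genes. That median was -0.14, 0.00 and -0.01 on the mutant arrays and -0.11, 0.00 and 0.00 on the control arrays in N2B27. In ESC medium it was 0.03 and 0.06 on the mutant arrays and 0.05, 0.07 and 0.05 on the control arrays.

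After 3 days in N2B27, part of the subunit genes stood lower than in ESC medium, in complexes I, III and IV, and few stood higher. In mutant cells 19 of the 67 genes were lower (28.4%) and 1 was higher (1.49%), while 10.3% of all genes were called lower and 14.9% higher. In control cells 18 were lower (26.9%) and 5 were higher (7.46%), while 13.3% of all genes were called lower and 12.8% higher. A gene was called at a Benjamini-Hochberg adjusted p under 0.05 over all genes in limma. The median log2 difference over the 67 genes was -0.12 in mutant and -0.09 in control cells, while over all genes it was 0.01 in mutant and 0.02 in control cells. Without N2B27 array 1 of the genotype the members' median was -0.07 in mutant and -0.04 in control cells, and without mutant N2B27 array 2 it was -0.19 in mutant cells. The 13 genes lower in both genotypes make up 68.4% of the genes called lower in mutant and 72.2% of those called lower in control cells. They are Ndufa1, Ndufa5, Ndufa9, Ndufa11, Ndufb10, Ndufs1, Ndufv3 and Ndufa4l2 among the complex I names, Uqcrc1 and Uqcr10 in complex III, and Cox5a, Cox7a1 and Cox7b in complex IV. Across the 67 genes the log2 medium differences of mutant and control cells, which share no array, had a Pearson r of 0.750 and a Spearman rho of 0.669, and 49 genes had the same sign. This overlap and these correlations were not computed over all genes, so whether they are particular to the subunit genes was not tested. Without mutant array 2 or 3 in ESC medium, the calls in mutant cells numbered 9 or 11, all lower. Without control array 1 in N2B27 those in control cells numbered 12, of which 9 were lower, and without control array 1 or 2 in ESC medium they numbered 15 or 14.

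**Figure D1:**
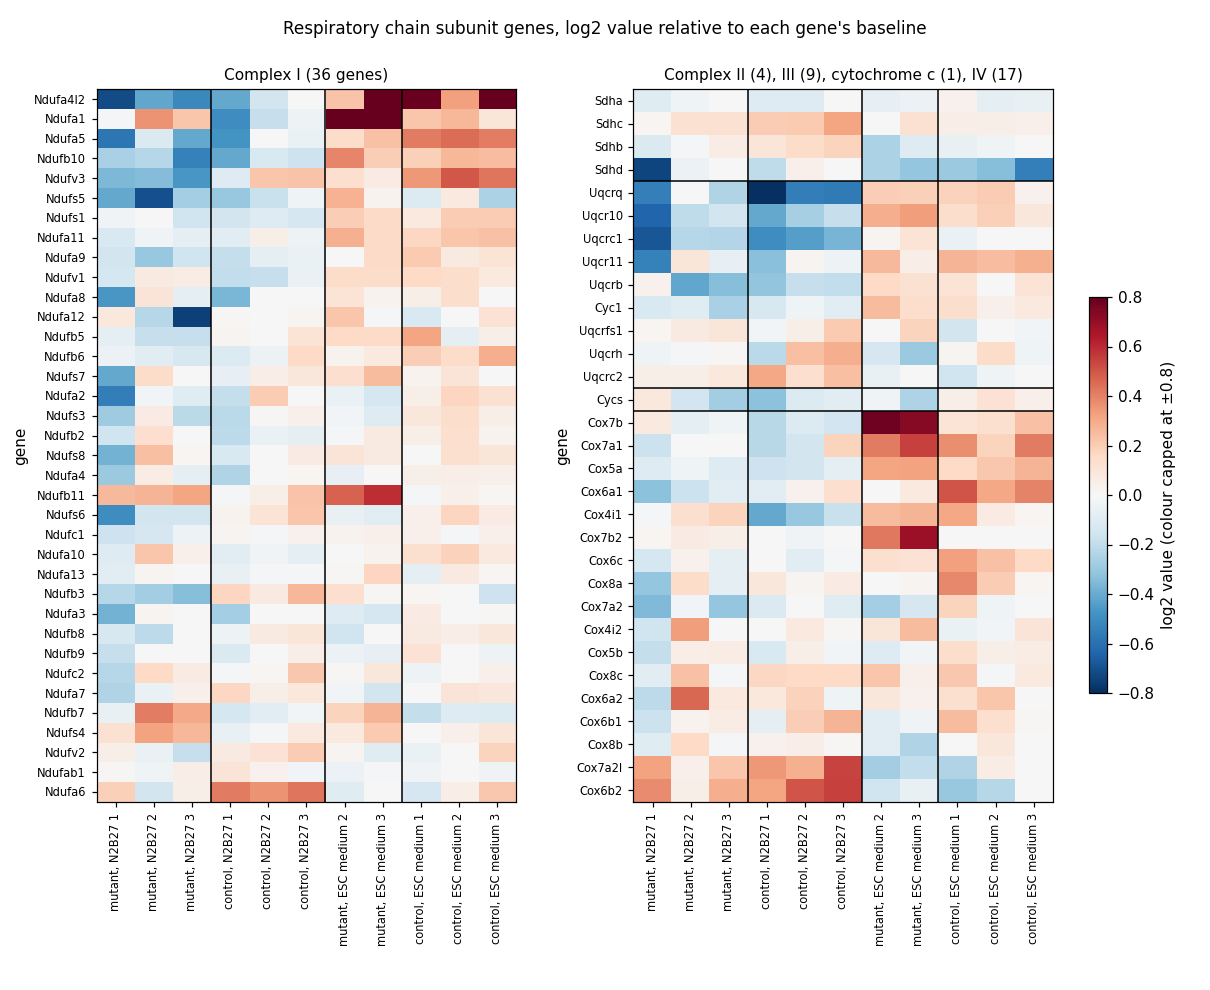
Log2 value of each of the 67 subunit genes (lines) on each of the 11 arrays (columns), relative to the gene's own baseline, with blue below and red above it and the colour capped at 0.8 in either direction. Black lines part the groups and the complexes. Genes are sorted within a complex by the sum of their medium differences in mutant and control cells, lowest first. Because of this order, the upper lines of complexes I, III and IV are bluer in the N2B27 columns than in the ESC medium columns.

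**Figure D2:**
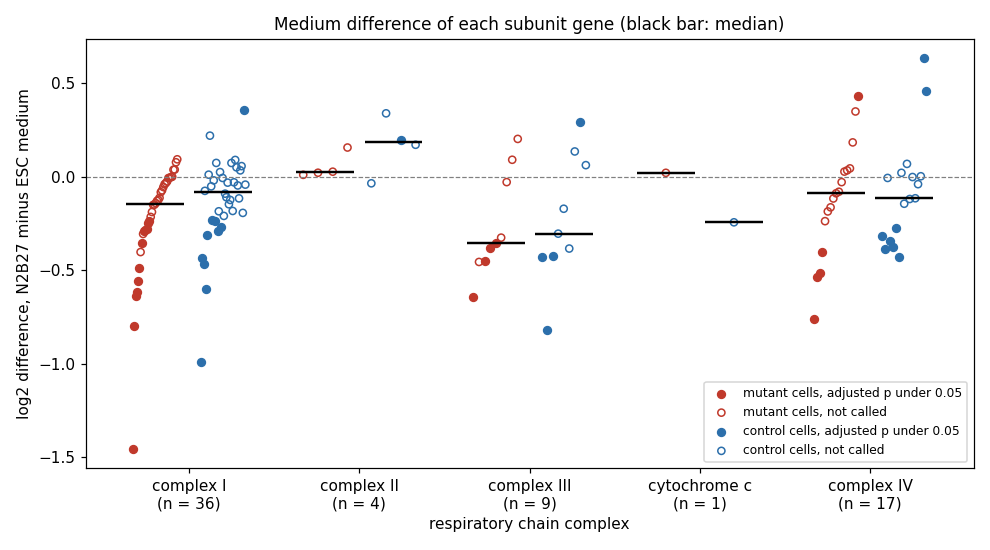
Log2 difference, N2B27 minus ESC medium, of each subunit gene by complex, in mutant cells (red) and control cells (blue). Filled points are genes called at an adjusted p under 0.05, and bars are medians over the genes of a complex, which lie lowest in complex III at -0.35 in mutant and -0.30 in control cells.

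The genes called lower lie in complexes I, III and IV. Complex II has 4 members, and at the shares of all genes called lower given above, 10.3% in mutant and 13.3% in control cells, none called lower among 4 is near the background. In complex I, 11 of 36 genes were lower and none was higher in mutant cells (median log2 difference -0.14), and 9 were lower and 1 was higher in control cells (median -0.08). In complex III, 4 of 9 genes were lower and none was higher in mutant cells (median -0.35), and 3 were lower and 1 was higher in control cells (median -0.30). In complex IV, 4 of 17 genes were lower and 1 was higher in mutant cells (median -0.09), and 6 were lower and 2 were higher in control cells (median -0.11). Whether these complexes differ from each other was not tested.

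Nuclear respiratory genes are classic targets of the transcription factors NRF1, of the ETS family factor GABP, and of YY1, so their promoters were searched for the letters GCGCATGC (NRF1), CCGGAAG (ETS) and AAGATGGC (YY1) on both strands. A palindromic run, GCGCATGCGC, holds the NRF1 letters on both strands and counts as 2 overlapping matches. RefSeq promoters, 250 bases before to 50 after the start of a gene on GRCm38.p6, were listed for 53 of the 67 genes. Of these, 8 (15.1%) held the NRF1 letters, 11 (20.8%) the ETS letters and 7 (13.2%) the YY1 letters. Of all 27025 promoters of that length, 2.80% held the NRF1 letters, 9.12% the ETS letters and 2.88% the YY1 letters. At least 1 of the 3 was found in 23 subunit promoters (43.4%), against 13.8% of all promoters. The sets differ in base composition, with a median GC content of 57.3% in the subunit promoters against 52.7% in all promoters and a median ratio of observed to expected CpG of 0.807 against 0.389. The NRF1 and ETS letters hold CpG, and the part of base composition in these shares was not tested. Of the 11 promoters listed for genes lower in N2B27 in both genotypes, 3 held any of them, 2 with the NRF1 letters, none with the ETS letters and 1 with the YY1 letters. Of the 36 for genes called lower in neither genotype, 19 held any. These 3 promoters are shown, with that of Cox5a, which holds none and whose medium difference held in every alternative tried in both genotypes. Capitals mark the matched letters. A match is not a measured binding site.
Ndufa11, chr17:56717512-56717811, plus strand: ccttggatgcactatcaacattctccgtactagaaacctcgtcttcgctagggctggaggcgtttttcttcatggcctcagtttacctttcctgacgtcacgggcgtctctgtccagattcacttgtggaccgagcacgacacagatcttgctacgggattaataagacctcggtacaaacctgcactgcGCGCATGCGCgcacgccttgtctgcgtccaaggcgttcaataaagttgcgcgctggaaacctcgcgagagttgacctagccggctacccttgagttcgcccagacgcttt
Uqcrc1, chr9:108936398-108936697, plus strand: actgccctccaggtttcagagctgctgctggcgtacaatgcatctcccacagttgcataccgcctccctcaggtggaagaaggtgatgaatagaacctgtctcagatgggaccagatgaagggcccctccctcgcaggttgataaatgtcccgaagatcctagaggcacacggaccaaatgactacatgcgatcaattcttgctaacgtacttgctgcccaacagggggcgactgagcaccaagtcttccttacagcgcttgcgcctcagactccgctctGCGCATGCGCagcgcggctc
Ndufa9, chr6:126849095-126849394, minus strand: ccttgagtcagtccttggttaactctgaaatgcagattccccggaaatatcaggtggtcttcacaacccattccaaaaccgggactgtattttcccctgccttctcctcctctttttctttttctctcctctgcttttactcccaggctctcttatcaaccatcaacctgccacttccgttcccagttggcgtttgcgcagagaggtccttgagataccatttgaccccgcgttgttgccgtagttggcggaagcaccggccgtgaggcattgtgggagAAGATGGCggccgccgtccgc
Cox5a, chr9:57520982-57521281, plus strand: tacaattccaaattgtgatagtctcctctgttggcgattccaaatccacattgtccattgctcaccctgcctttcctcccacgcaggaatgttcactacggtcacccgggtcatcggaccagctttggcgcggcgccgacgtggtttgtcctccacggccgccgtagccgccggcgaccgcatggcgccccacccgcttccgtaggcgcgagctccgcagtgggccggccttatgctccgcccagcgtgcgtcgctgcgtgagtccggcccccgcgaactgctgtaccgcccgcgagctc

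Among the catalytic core of complex I, which holds the flavin and the iron-sulfur clusters, 1 of 6 measured genes was called lower in mutant and 2 in control cells. Of all genes 10.3% were called lower in mutant and 13.3% in control cells, and 1 of 6 is near that share. Ndufs1, an iron-sulfur subunit of the arm that oxidises NADH, had log2 values of -0.03, 0.00 and -0.16 in N2B27 and 0.20 and 0.15 in ESC medium in mutant cells. In control cells its log2 values were -0.15, -0.10 and -0.13 in N2B27 and 0.08, 0.21 and 0.20 in ESC medium. No N2B27 array reached any ESC medium array in either genotype, and the gene fell in both (in mutant cells, log2 difference -0.24, SE 0.07, adjusted p 0.0281; in control cells, log2 difference -0.29, SE 0.06, adjusted p 0.00637). Ndufv1, which binds NADH and the flavin, had log2 values of -0.14, 0.07 and 0.06 in N2B27 and 0.15 and 0.15 in ESC medium in mutant cells, and -0.19, -0.19 and -0.05 in N2B27 and 0.16, 0.14 and 0.08 in ESC medium in control cells. The control values do not overlap, and Ndufv1 fell in control cells (log2 difference -0.27, SE 0.07, adjusted p 0.0174). In mutant cells the change was smaller than could be called (log2 difference -0.15, SE 0.08, adjusted p 0.216). The Ndufs1 call in mutant cells was lost without either mutant ESC medium array or mutant N2B27 array 3, at an adjusted p of up to 0.169 in limma, and the Ndufv1 call without control array 1 or 2 in either medium, at up to 0.0631. The other core genes, Ndufs3, Ndufs7, Ndufs8 and Ndufv2, had log2 differences from -0.28 to -0.03 in mutant and from -0.15 to 0.09 in control cells, and none was called.

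Accessory subunits, which do not carry electrons but are needed to build and hold complex I, make up most of its members. Among the 29 measured accessory genes without Ndufa4l2, 9 were lower and none was higher in mutant cells, and 6 were lower and 1 was higher in control cells. Ndufa4 is counted among these 29 by its name. That is 31.0% lower in mutant and 20.7% in control cells, against 16.7% in mutant and 33.3% in control cells of the core genes, and whether these shares differ was not tested. The shares of all genes called lower were 10.3% in mutant and 13.3% in control cells. Ndufb10, of the membrane arm, had log2 values of -0.26, -0.23 and -0.54 in N2B27 and 0.39 and 0.20 in ESC medium in mutant cells. In control cells they were -0.41, -0.12 and -0.16 in N2B27 and 0.19, 0.27 and 0.24 in ESC medium. All 6 N2B27 arrays lie below 0 and all 5 ESC medium arrays above it, and the call held in both genotypes under every alternative run (in mutant cells, log2 difference -0.64, SE 0.12, adjusted p 0.00259; in control cells, log2 difference -0.47, SE 0.10, adjusted p 0.00798). Ndufa5, a subunit of the arm that reaches into the matrix, had log2 values of -0.58, -0.11 and -0.41 in N2B27 and 0.14 and 0.23 in ESC medium in mutant cells, and -0.48, 0.00 and -0.05 in N2B27 and 0.41, 0.45 and 0.41 in ESC medium in control cells. The groups do not overlap in either genotype, and the arrays numbered 1 in N2B27 are the lowest of both. Ndufa5 fell in both (in mutant cells, log2 difference -0.56, SE 0.15, adjusted p 0.0226; in control cells, log2 difference -0.60, SE 0.14, adjusted p 0.00894). Its call in mutant cells was lost without either mutant ESC medium array or without mutant N2B27 array 1 or 3, at an adjusted p of up to 0.132 in limma.

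Ndufs5, an accessory subunit on the side of the intermembrane space, had log2 values of -0.41, -0.71 and -0.27 in N2B27 and 0.28 and 0.03 in ESC medium in mutant cells, without overlap (log2 difference -0.62, SE 0.14, adjusted p 0.0106). In control cells its log2 values were -0.30, -0.18 and -0.03 in N2B27 and -0.11, 0.08 and -0.26 in ESC medium, which overlap, with no call (log2 difference -0.08, SE 0.13, adjusted p 0.776). The difference between these medium differences did not pass the test (log2 -0.54, adjusted p 0.229), and without mutant ESC medium array 2 the call in mutant cells was lost (adjusted p 0.119 in limma). Smaller decreases that were called in both genotypes were those of Ndufa11 (log2 differences -0.29 in mutant and -0.23 in control cells), a membrane subunit, and Ndufa9 (-0.28 in mutant and -0.24 in control cells), which sits where the arms of the complex meet. Without single arrays, the calls of Ndufa11 and Ndufa9 were lost in at least 1 genotype, with adjusted p-values in limma of up to 0.119 for Ndufa11 and 0.220 for Ndufa9. Ndufa11 is the mean of 2 clusters, which differ in control cells. There 1 cluster had log2 values of -0.24, -0.03 and -0.03 in N2B27 and 0.19, 0.31 and 0.29 in ESC medium. The other had 0.06, 0.13 and -0.05 in N2B27 and 0.14, 0.13 and 0.18 in ESC medium, a smaller decrease.

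Ndufab1, the mitochondrial acyl carrier protein, which is bound to complex I and also serves fatty acid synthesis, kept within a narrow band on all arrays. Its log2 values were 0.01, -0.04 and 0.05 in N2B27 and -0.04 and -0.01 in ESC medium in mutant cells, and 0.10, 0.03 and -0.02 in N2B27 and -0.03, 0.00 and -0.03 in ESC medium in control cells. The media overlap in both genotypes, with log2 differences of 0.04 ± 0.06, adjusted p 0.750 (SE) in mutant and 0.06 ± 0.05, adjusted p 0.539 in control cells. Ndufa6, an accessory subunit, was the 1 complex I gene called higher, in control cells (log2 difference 0.36, SE 0.10, adjusted p 0.0266). In mutant cells its log2 difference was 0.08 ± 0.11, adjusted p 0.728, and the difference between the genotypes in this response was not called (log2 -0.28, adjusted p 0.488). The control call was lost on leaving out control array 1 or 2 in ESC medium or any control array in N2B27, at adjusted p-values in limma of up to 0.0963.

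Ndufa4 was first counted in complex I and is now placed in complex IV, and Ndufa4l2 is its paralog, known as a gene induced by low oxygen that restrains complex I. Ndufa4 had log2 values of -0.30, 0.06 and -0.08 in N2B27 and -0.07 and 0.00 in ESC medium in mutant cells, and -0.24, 0.00 and 0.01 in N2B27 and 0.05, 0.05 and 0.04 in ESC medium in control cells. In both genotypes N2B27 array 1 lies below all others, and no difference was called (log2 -0.07 ± 0.11, adjusted p 0.729 in mutant and -0.12 ± 0.10, adjusted p 0.438 in control cells, with SE). Ndufa4l2 had the largest medium difference of all 67 genes in both genotypes. Its log2 values were -0.72, -0.42 and -0.51 in N2B27 and 0.23 and 1.58 in ESC medium in mutant cells, and -0.41, -0.15 and 0.00 in N2B27 and 0.79, 0.33 and 1.29 in ESC medium in control cells. All ESC medium arrays lie above all N2B27 arrays, but the ESC medium arrays of one genotype differ among themselves by about as much as the media do. The gene fell in both genotypes (in mutant cells, log2 difference -1.45, SE 0.36, adjusted p 0.0133; in control cells, log2 difference -0.99, SE 0.32, adjusted p 0.045). The call in mutant cells was lost without mutant ESC medium array 3 (log2 difference -0.78, adjusted p 0.128 in limma). That in control cells was lost without control ESC medium array 1 or 3 or any control array in N2B27, at an adjusted p of up to 0.155.

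Complex II, succinate dehydrogenase, also works in the citric acid cycle. Its flavoprotein gene Sdha had log2 values of -0.10, -0.03 and 0.00 in N2B27 and -0.06 and -0.04 in ESC medium in mutant cells, and -0.10, -0.10 and 0.00 in N2B27 and 0.03, -0.07 and -0.06 in ESC medium in control cells. These values overlap between media, and the log2 differences were 0.01 ± 0.06, adjusted p 0.943 (SE) in mutant and -0.04 ± 0.06, adjusted p 0.758 in control cells. Sdhb, the iron-sulfur subunit, had log2 values of -0.11, -0.01 and 0.06 in N2B27 and -0.25 and -0.10 in ESC medium in mutant cells, and 0.10, 0.15 and 0.18 in N2B27 and -0.06, -0.03 and 0.00 in ESC medium in control cells. All control N2B27 arrays lie above the control ESC medium arrays, but Sdhb was called in neither genotype (log2 0.16 ± 0.07, adjusted p 0.148 in mutant and 0.17 ± 0.06, adjusted p 0.0751 in control cells).

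Sdhc and Sdhd encode the membrane anchors of complex II. Sdhc had log2 values of 0.02, 0.12 and 0.12 in N2B27 and 0.00 and 0.12 in ESC medium in mutant cells, which overlap, and 0.20, 0.21 and 0.32 in N2B27 and 0.05, 0.05 and 0.04 in ESC medium in control cells, which do not. It rose in control cells (log2 difference 0.20, SE 0.06, adjusted p 0.0318) and was not called in mutant cells (log2 0.03 ± 0.07, adjusted p 0.846). The call did not outlast leaving out any 1 of the 6 control arrays, with adjusted p-values in limma of up to 0.121. Sdhd had log2 values of -0.74, -0.05 and 0.00 in N2B27 and -0.25 and -0.31 in ESC medium in mutant cells, and -0.21, 0.04 and 0.00 in N2B27 and -0.30, -0.34 and -0.54 in ESC medium in control cells. Mutant N2B27 array 1 is the lowest of the 11 for Sdhd, the other mutant N2B27 arrays lie above the mutant ESC medium arrays, and no difference was called (log2 0.02 ± 0.19, adjusted p 0.962 in mutant and 0.34 ± 0.17, adjusted p 0.197 in control cells). Without both N2B27 arrays numbered 1, an alternative chosen after seeing the data, Sdhd was called higher in control cells (log2 0.41, adjusted p 0.00885 in limma).

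In complex III the core proteins Uqcrc1 and Uqcrc2, which pair with each other in the matrix part of the complex, had opposite signs in control cells. Uqcrc1 had log2 values of -0.69, -0.23 and -0.23 in N2B27 and 0.02 and 0.11 in ESC medium in mutant cells, and -0.50, -0.44 and -0.37 in N2B27 and -0.05, 0.01 and 0.00 in ESC medium in control cells. The media do not overlap, and Uqcrc1 fell in both genotypes (in mutant cells, log2 difference -0.45, SE 0.12, adjusted p 0.0221; in control cells, log2 difference -0.42, SE 0.11, adjusted p 0.0174). Uqcrc2 had log2 values of 0.05, 0.05 and 0.09 in N2B27 and -0.06 and 0.00 in ESC medium in mutant cells, and 0.31, 0.14 and 0.24 in N2B27 and -0.16, -0.04 and 0.00 in ESC medium in control cells. Every N2B27 array lies above the ESC medium arrays of its genotype, by little in mutant cells. Uqcrc2 rose in control cells, under every alternative run (log2 difference 0.29, SE 0.06, adjusted p 0.00755), and was not called in mutant cells (log2 0.09 ± 0.07, adjusted p 0.448). In control cells the Uqcrc1 call was lost without control ESC medium array 2 or control N2B27 array 1, and in mutant cells without either mutant ESC medium array, with adjusted p-values in limma of up to 0.138.

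Of the nuclear genes for the electron carriers of complex III, Cyc1 was called, in mutant cells. Uqcrfs1, the Rieske iron-sulfur protein, had log2 values of 0.02, 0.07 and 0.10 in N2B27 and 0.00 and 0.18 in ESC medium in mutant cells, and -0.02, 0.05 and 0.21 in N2B27 and -0.15, 0.00 and -0.02 in ESC medium in control cells. The media overlap, and the log2 differences were -0.03 ± 0.09, adjusted p 0.879 (SE) in mutant and 0.14 ± 0.08, adjusted p 0.260 in control cells. Cyc1, cytochrome c1, which hands electrons to cytochrome c, had log2 values of -0.12, -0.10 and -0.26 in N2B27 and 0.25 and 0.14 in ESC medium in mutant cells, and -0.13, -0.04 and -0.09 in N2B27 and 0.14, 0.04 and 0.08 in ESC medium in control cells. No values overlap between media, and Cyc1 fell in mutant cells (log2 difference -0.35, SE 0.07, adjusted p 0.00446). In control cells the difference did not pass the test (log2 -0.17 ± 0.06, adjusted p 0.0754), and the mutant call was lost without mutant ESC medium array 2 (adjusted p 0.0597 in limma).

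Small subunits of complex III gave its largest differences. Uqcrq, a subunit beside cytochrome b, had log2 values of -0.55, 0.00 and -0.24 in N2B27 and 0.20 and 0.19 in ESC medium in mutant cells, and -0.91, -0.55 and -0.57 in N2B27 and 0.19, 0.20 and 0.03 in ESC medium in control cells. All N2B27 arrays lie below all ESC medium arrays, and the control N2B27 arrays are the 3 lowest, with mutant array 1 next to them. In control cells Uqcrq fell, under every alternative run (log2 difference -0.82, SE 0.14, adjusted p 0.00179). In mutant cells the difference stood just outside the threshold (log2 difference -0.46, SE 0.15, adjusted p 0.0539). Uqcr10, another small subunit, had log2 values of -0.64, -0.20 and -0.15 in N2B27 and 0.29 and 0.33 in ESC medium in mutant cells, and -0.41, -0.27 and -0.18 in N2B27 and 0.14, 0.19 and 0.09 in ESC medium in control cells. Again no array overlaps between media, and Uqcr10 fell in both genotypes (in mutant cells, log2 difference -0.64, SE 0.13, adjusted p 0.00491; in control cells, log2 difference -0.43, SE 0.12, adjusted p 0.0215). Its control call was lost without control ESC medium array 1 or 2 or control N2B27 array 1 or 2, at up to an adjusted p of 0.0801 in limma. Uqcr11, a small subunit as well, was not called (log2 -0.33 ± 0.17, adjusted p 0.212 in mutant and -0.38 ± 0.15, adjusted p 0.0934 in control cells) but was called lower in control cells with sample number as a replicate block (log2 -0.38, adjusted p 0.0306 in limma).

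Cytochrome c, the mobile carrier between complexes III and IV, is encoded by Cycs, which was measured by 3 clusters. Their mean had log2 values of 0.08, -0.15 and -0.28 in N2B27 and -0.03 and -0.25 in ESC medium in mutant cells, and -0.33, -0.11 and -0.09 in N2B27 and 0.05, 0.11 and 0.04 in ESC medium in control cells. The media overlap in mutant cells and not in control cells, and no difference was called (log2 0.02 ± 0.11, adjusted p 0.937 in mutant and -0.24 ± 0.10, adjusted p 0.118 in control cells). The clusters disagreed. In mutant cells 1 of them was higher in N2B27 (log2 difference 0.51, adjusted p 0.0287 with each cluster tested alone in limma), while the others were at -0.29 and -0.16, not called. Cytochrome c has processed copies in the mouse genome, and which copies a cluster reads was not tested, so the value of Cycs is uncertain.

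Complex IV has subunits that come in widely expressed and in tissue-restricted forms, and 10 of its measured genes are widely expressed forms. Of these, 2 were lower and 1 was higher in mutant cells, and 5 were lower and 1 was higher in control cells. Beside them, 10.3% of all genes were called lower and 14.9% higher in mutant cells, and 13.3% lower and 12.8% higher in control cells. The mutant counts among 10 genes are near these shares. Cox5a, a subunit on the matrix side, had log2 values of -0.10, -0.04 and -0.11 in N2B27 and 0.32 and 0.32 in ESC medium in mutant cells, and -0.16, -0.14 and -0.08 in N2B27 and 0.16, 0.22 and 0.27 in ESC medium in control cells. All N2B27 arrays lie below 0 and all ESC medium arrays above it, with a narrow spread in each group. Cox5a fell in both genotypes under every alternative run (in mutant cells, log2 difference -0.40, SE 0.06, adjusted p 0.00089; in control cells, log2 difference -0.35, SE 0.05, adjusted p 0.00117). Cox5b, the zinc-binding partner on the matrix side, had log2 values of -0.19, 0.05 and 0.06 in N2B27 and -0.10 and -0.02 in ESC medium in mutant cells, and -0.12, 0.05 and -0.02 in N2B27 and 0.14, 0.05 and 0.06 in ESC medium in control cells. The mutant media overlap, the control media meet at 0.05, and Cox5b was not called (log2 0.03 ± 0.09, adjusted p 0.857 in mutant and -0.11 ± 0.08, adjusted p 0.366 in control cells).

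Cox4i1, the widely expressed form of the largest nuclear subunit, had log2 values of -0.02, 0.13 and 0.18 in N2B27 and 0.25 and 0.27 in ESC medium in mutant cells, and -0.41, -0.30 and -0.18 in N2B27 and 0.31, 0.07 and 0.02 in ESC medium in control cells. The control N2B27 arrays lie below all others, and Cox4i1 fell in control cells (log2 difference -0.43, SE 0.09, adjusted p 0.00657) and was not called in mutant cells (log2 difference -0.16, SE 0.10, adjusted p 0.314). Cox6a1, the form found outside muscle, had log2 values of -0.33, -0.17 and -0.09 in N2B27 and 0.00 and 0.08 in ESC medium in mutant cells, and -0.09, 0.04 and 0.13 in N2B27 and 0.50, 0.31 and 0.40 in ESC medium in control cells. The control ESC medium arrays are the highest, and Cox6a1 fell in control cells (log2 difference -0.38, SE 0.08, adjusted p 0.00811), while the mutant difference was not called (log2 difference -0.24, SE 0.09, adjusted p 0.0979). Cox6c, a small membrane subunit, also fell in control cells (log2 difference -0.28, SE 0.07, adjusted p 0.0114) and had a log2 difference of -0.19 in mutant cells, without a call (adjusted p 0.0985 in limma). The control calls of these 3 genes held under every alternative run. None of them was called in the test of the difference between genotypes in this response, with adjusted p-values of 0.453 for Cox4i1, 0.736 for Cox6a1 and 0.792 for Cox6c.

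Other widely expressed forms overlapped between media. Cox6b1, on the side of the intermembrane space, had log2 values of -0.17, 0.03 and 0.06 in N2B27 and -0.08 and -0.03 in ESC medium in mutant cells, and -0.07, 0.20 and 0.27 in N2B27 and 0.25, 0.14 and 0.01 in ESC medium in control cells. Cox7a2, a small membrane subunit, had log2 values of -0.35, -0.02 and -0.31 in N2B27 and -0.27 and -0.13 in ESC medium in mutant cells, and -0.12, 0.00 and -0.10 in N2B27 and 0.18, -0.03 and 0.00 in ESC medium in control cells. Cox8a, another, had log2 values of -0.31, 0.15 and -0.07 in N2B27 and 0.00 and 0.02 in ESC medium in mutant cells, and 0.09, 0.02 and 0.06 in N2B27 and 0.39, 0.20 and 0.02 in ESC medium in control cells. Their log2 differences ran from -0.09 to 0.03 in mutant and from -0.14 to 0.00 in control cells, and none was called.

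Cox7a2l, which joins complexes III and IV into supercomplexes and carries a name of complex IV, was the 1 subunit gene called higher in both genotypes. Its log2 values were 0.32, 0.04 and 0.22 in N2B27 and -0.28 and -0.20 in ESC medium in mutant cells, and 0.35, 0.29 and 0.54 in N2B27 and -0.24, 0.06 and -0.01 in ESC medium in control cells. No N2B27 array lies at or below an ESC medium array of its genotype (in mutant cells, log2 difference 0.43, SE 0.11, adjusted p 0.0191; in control cells, log2 difference 0.46, SE 0.10, adjusted p 0.00854). The control call held under every alternative run, and the mutant call was lost without either mutant ESC medium array or without mutant N2B27 array 1 or 3, at an adjusted p of up to 0.136 in limma.

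**Figure D3:**
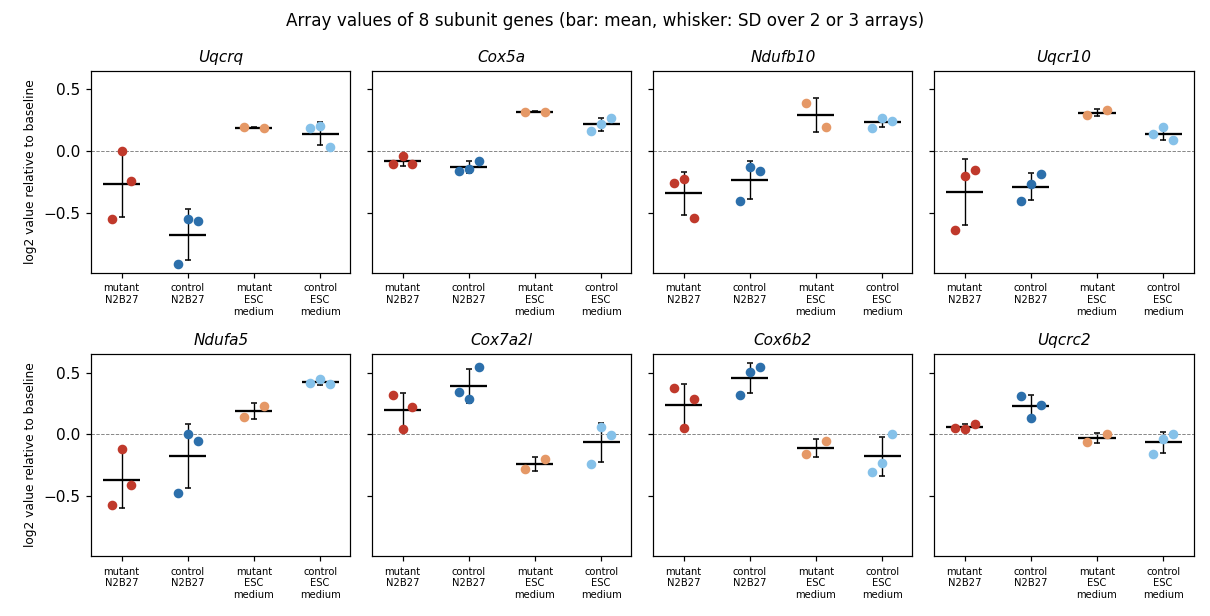
Log2 value, relative to the gene's baseline, on each array for 8 subunit genes, with the bar at the group mean and whiskers for the SD over 3 arrays (2 for mutant cells in ESC medium). Uqcrq, Cox5a, Ndufb10, Uqcr10 and Ndufa5 lie lower in N2B27 than in ESC medium, and Cox7a2l, Cox6b2 and Uqcrc2 lie higher, with no overlap between the media of a genotype.

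The tissue-restricted isoforms numbered 8 among the members, of which 3 were lower in mutant cells (Ndufa4l2, Cox7a1 and Cox7b2), while in control cells 2 were lower (Ndufa4l2 and Cox7a1) and 1 was higher (Cox6b2). Over all genes, 10.3% were called lower in mutant cells, and 13.3% lower and 12.8% higher in control cells. The control counts among 8 genes are near these shares. Cox7a1, the heart and skeletal muscle form, had log2 values of -0.17, 0.00 and 0.00 in N2B27 and 0.41 and 0.55 in ESC medium in mutant cells, without overlap. In control cells its log2 values were -0.22, -0.14 and 0.18 in N2B27 and 0.37, 0.18 and 0.42 in ESC medium, where the highest N2B27 array meets the lowest ESC medium array. Cox7a1 fell in both (in mutant cells, log2 difference -0.54, SE 0.12, adjusted p 0.0089; in control cells, log2 difference -0.38, SE 0.11, adjusted p 0.0261). Without mutant ESC medium array 3 the call in mutant cells was lost, and in control cells it was lost without array 1 or 3 in ESC medium or array 1 or 2 in N2B27, at an adjusted p of up to 0.0981 in limma. Of the 7 muscle markers examined, Actc1 and Des were higher in N2B27 in both genotypes and Tnnt2 was lower in mutant cells. Their part in the values of the muscle isoforms was not tested.

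Cox6b2, the testis form of Cox6b, had log2 values of 0.38, 0.05 and 0.29 in N2B27 and -0.16 and -0.06 in ESC medium in mutant cells, and 0.32, 0.50 and 0.55 in N2B27 and -0.30, -0.23 and 0.00 in ESC medium in control cells. All N2B27 arrays lie above the ESC medium arrays of their genotype. Cox6b2 rose in control cells, under every alternative run (log2 difference 0.63, SE 0.11, adjusted p 0.00193), and stood just outside the threshold in mutant cells (log2 difference 0.35, SE 0.12, adjusted p 0.0593). Cox8c, the testis form of Cox8, had log2 values of -0.08, 0.23 and -0.01 in N2B27 and 0.22 and 0.04 in ESC medium in mutant cells, and 0.17, 0.16 and 0.16 in N2B27 and 0.21, -0.01 and 0.08 in ESC medium in control cells. These overlap between media and were not called (log2 -0.08 ± 0.10, adjusted p 0.679 in mutant and 0.07 ± 0.09, adjusted p 0.699 in control cells).

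The remaining isoforms were not called either. Cox4i2, the lung form, which responds to oxygen, had log2 values of -0.16, 0.33 and 0.00 in N2B27 and 0.10 and 0.25 in ESC medium in mutant cells, and 0.00, 0.08 and 0.01 in N2B27 and -0.05, -0.02 and 0.10 in ESC medium in control cells. Cox6a2, the heart and skeletal muscle form of Cox6a, had log2 values of -0.21, 0.46 and 0.08 in N2B27 and 0.09 and 0.04 in ESC medium in mutant cells, and 0.08, 0.18 and -0.03 in N2B27 and 0.13, 0.22 and 0.00 in ESC medium in control cells. Cox8b, the muscle form of Cox8, had log2 values of -0.10, 0.16 and -0.01 in N2B27 and -0.09 and -0.24 in ESC medium in mutant cells, and 0.04, 0.06 and 0.01 in N2B27 and 0.00, 0.09 and 0.00 in ESC medium in control cells. For all 3 the highest mutant N2B27 array is array 2, and the media overlap in both genotypes.

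Between genotypes few subunit genes differed. In ESC medium 4 of the 67 were higher in mutant than in control cells (5.97%) and 1 was lower (1.49%), while 3.09% of all genes were called higher and 3.05% lower. Of the 4 higher genes, Ndufa1, Ndufb11 and Cox7b are the 3 members on the X chromosome, and the fourth is Cox7b2 on chromosome 5. Over the 739 measured genes of the X chromosome the median log2 genotype difference in ESC medium was 0.09, over the 955 of chromosome 8 it was 0.12, and over the 18145 of the other autosomes it was -0.02. Called higher in mutant cells were 163 of the 739 genes on X, 150 of the 955 on chromosome 8 and 301 of the 18145. Of the 61 members on neither of these chromosomes, 1 was called higher and 1 lower. The median log2 difference over the 67 members was 0.01. Without mutant ESC medium array 2 or 3 the calls numbered 3 in each case, all higher.

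Ndufa1, a small membrane subunit of complex I needed for its assembly, had log2 values of 0.97 and 1.00 in mutant and 0.22, 0.26 and 0.10 in control cells in ESC medium. Both mutant arrays lie far above the control arrays (log2 difference 0.79, SE 0.14, adjusted p 0.00833). In N2B27 its log2 values were -0.02, 0.36 and 0.22 in mutant and -0.50, -0.19 and -0.04 in control cells, also without overlap but short of the threshold (log2 difference 0.43, SE 0.12, adjusted p 0.0758). With sample number as a replicate block the N2B27 difference was called (adjusted p 0.0374 in limma). Ndufa1 fell in N2B27 relative to ESC medium in both genotypes (in mutant cells, log2 difference -0.80, SE 0.14, adjusted p 0.00195; in control cells, log2 difference -0.43, SE 0.12, adjusted p 0.0257). Its call in ESC medium was lost without either mutant array (adjusted p 0.077 without array 2 and 0.0676 without array 3 in limma). The medium call in control cells was lost without array 1 or 2 of either medium (adjusted p of up to 0.0849).

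Ndufb11, a membrane subunit of complex I, had log2 values of 0.47 and 0.59 in mutant and -0.01, 0.04 and 0.01 in control cells in ESC medium. These do not overlap, and the call held under every alternative run (log2 difference 0.52, SE 0.08, adjusted p 0.00382). In N2B27 its log2 values were 0.26, 0.27 and 0.32 in mutant and -0.01, 0.04 and 0.23 in control cells, again all higher in mutant cells but without a call (log2 difference 0.20, SE 0.07, adjusted p 0.142). These values are means of 2 clusters. In 1 cluster the N2B27 values overlapped, at 0.16, 0.18 and 0.18 in mutant and -0.02, 0.07 and 0.20 in control cells. In the other they did not, at 0.36, 0.36 and 0.46 in mutant and 0.01, 0.02 and 0.26 in control cells. Between media Ndufb11 was called lower in mutant cells (log2 difference -0.25, SE 0.08, adjusted p 0.0385) and not called in control cells (log2 difference 0.07, SE 0.07, adjusted p 0.538), and the difference between these medium differences did not pass the test either (log2 -0.32, adjusted p 0.174). The call in mutant cells was lost without any 1 of the 5 mutant arrays (adjusted p of up to 0.255 in limma). Cox7b, a small subunit of complex IV, had log2 values of 0.78 and 0.73 in mutant and 0.11, 0.13 and 0.24 in control cells in ESC medium, again far apart (log2 difference 0.59, SE 0.07, adjusted p 0.00125). In N2B27 its log2 values were 0.08, -0.07 and -0.04 in mutant and -0.22, -0.11 and -0.15 in control cells, not overlapping but closer (log2 difference 0.15, SE 0.06, adjusted p 0.217). Cox7b fell in N2B27 in both genotypes under every alternative run (in mutant cells, log2 difference -0.76, SE 0.07, adjusted p 6.75e-05; in control cells, log2 difference -0.32, SE 0.06, adjusted p 0.00434). Its 2 clusters gave log2 genotype differences of 0.73 and 0.46 in ESC medium, both called when tested alone. Which genomic copies these clusters read was not tested, so the value of Cox7b is uncertain in that respect. With quantile normalization between arrays the difference of Cox7b in ESC medium missed the threshold (adjusted p 0.0507 in limma).

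Cox7b2, the testis form of Cox7b, had log2 values of 0.42 and 0.69 in mutant cells in ESC medium, while the other 9 arrays lie between -0.03 and 0.07. In control cells in ESC medium its log2 values were -0.01, 0.00 and 0.00. Cox7b2 was higher in mutant cells under every alternative run (log2 difference 0.56, SE 0.07, adjusted p 0.00221). In N2B27 its log2 values were 0.02, 0.07 and 0.05 in mutant and 0.00, -0.03 and 0.00 in control cells, without a call (log2 difference 0.05, SE 0.07, adjusted p 0.776), and between media it fell in mutant cells (log2 difference -0.51, SE 0.07, adjusted p 0.000752). The SD of Cox7b2 was 0.19 in mutant cells in ESC medium and 0.0018 to 0.0264 in the other groups. The SE pools the spread of all 4 groups, so that of the 2 mutant ESC medium arrays is understated. With 1 of these 2 arrays left out, the other was judged by the spread of the other groups. Of the 6 germ cell markers examined, 3 were higher in mutant than in control cells in ESC medium as well, Sycp1 (log2 difference 1.40), Tdpoz3 (2.33) and Taf7l (0.79). The other 3 were not called, of which Sycp3 (-1.26) and Ddx4 (-0.65) had differences of the opposite sign. Sycp3 had log2 values of -0.01 and 0.51 in mutant and 0.97, 1.57 and 1.99 in control cells in ESC medium, which do not overlap (adjusted p 0.113 in limma). Of the 6 markers, 4 were lower in N2B27 than in ESC medium in each genotype. No summed level can be formed from values on separate baselines, and the part of germ cell genes in the result for Cox7b2 was not tested.

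In ESC medium Cox6a1 was the 1 member lower in mutant cells, at log2 values of 0.00 and 0.08 in mutant and 0.50, 0.31 and 0.40 in control cells. The groups do not overlap, but the adjusted p lay at the threshold (log2 difference -0.36, SE 0.09, adjusted p 0.0495), and leaving out any 1 of these 5 arrays ended the call, at adjusted p-values in limma from 0.0702 to 0.314. In N2B27 its log2 values, -0.33, -0.17 and -0.09 in mutant and -0.09, 0.04 and 0.13 in control cells, come closest at mutant array 3 and control array 1, and were not called (log2 difference -0.22, SE 0.08, adjusted p 0.167).

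**Figure D4:**
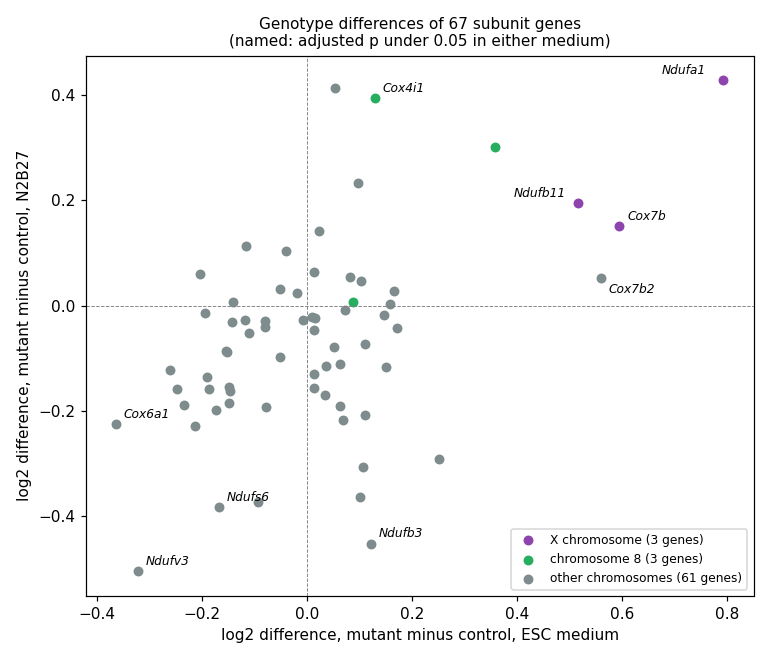
Log2 difference, mutant minus control, of each of the 67 subunit genes in ESC medium (horizontal axis) and in N2B27 (vertical axis), coloured by chromosome. The 3 members on the X chromosome lie to the right and above 0, and the genes named are those called in either medium.

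In N2B27, 1 of the 67 genes was called higher in mutant than in control cells (1.49%) and 3 were lower (4.48%), while 4.1% of all genes were called higher and 1.64% lower. The median log2 difference over the members was -0.05. All 3 genes called lower, Ndufb3, Ndufv3 and Ndufs6, are accessory genes of complex I, in which 27 of 36 log2 differences were negative, called or not. So were 3 of 4 in complex II, 7 of 9 in complex III, 9 of 17 in complex IV and 46 of all 67 members. Over all genes 49.6% of these differences were positive. None of the 5 members called in ESC medium was called in N2B27. Across the 67 genes the log2 genotype differences of the media, which share no array, had a Pearson r of 0.482 and a Spearman rho of 0.367, and 40 genes had the same sign. These values were not computed over all genes either. Without control N2B27 array 1, 2 or 3 the calls numbered 2, 1 and 1, and without mutant N2B27 array 1 they numbered 8, of which 5 were higher. Leaving out 1 array at a time put this median between -0.12 (without control array 1) and -0.02 (without mutant array 1), with -0.11 without mutant array 2 and -0.03 without control array 3. Between arrays of the same number it was -0.09 for number 1, 0.01 for number 2 and -0.09 for number 3.

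Ndufb3, of the membrane arm, had log2 values of -0.23, -0.28 and -0.34 in mutant and 0.17, 0.07 and 0.26 in control cells in N2B27. All mutant arrays lie below 0 and all control arrays above it, and the call held under every alternative run (log2 difference -0.45, SE 0.07, adjusted p 0.00779). In ESC medium its log2 values were 0.14 and 0.01 in mutant and 0.02, 0.00 and -0.16 in control cells, which overlap and were not called (log2 difference 0.12, SE 0.08, adjusted p 0.544). Between media it fell in mutant cells (log2 difference -0.35, SE 0.08, adjusted p 0.0102), though not without mutant ESC medium array 2 (adjusted p 0.111 in limma), and in control cells it was not called (log2 0.22 ± 0.07, adjusted p 0.0524). Ndufv3, an accessory subunit beside the NADH-binding site, had log2 values of -0.36, -0.35 and -0.47 in mutant and -0.11, 0.22 and 0.23 in control cells in N2B27, without overlap (log2 difference -0.50, SE 0.09, adjusted p 0.0125). In ESC medium its log2 values were 0.13 and 0.06 in mutant and 0.34, 0.50 and 0.43 in control cells, also without overlap and in the same direction but not called (log2 difference -0.32, SE 0.10, adjusted p 0.107). Its call in N2B27 was lost without control N2B27 array 2 or 3 (adjusted p 0.0509 and 0.0575 in limma). Between media Ndufv3 fell in both genotypes (in mutant cells, log2 difference -0.49, SE 0.10, adjusted p 0.00568; in control cells, log2 difference -0.31, SE 0.09, adjusted p 0.0306), but not in mutant cells without ESC medium array 2, nor in control cells without ESC medium array 2 or 3 or N2B27 array 1 (adjusted p of up to 0.108 in limma).

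Ndufs6, a zinc-binding accessory subunit needed in the last steps of assembly, had log2 values of -0.50, -0.15 and -0.14 in mutant and 0.03, 0.11 and 0.22 in control cells in N2B27, without overlap, at the threshold (log2 difference -0.38, SE 0.10, adjusted p 0.0482). Leaving out mutant array 1 or any control array in N2B27 ended that call, with adjusted p-values in limma from 0.0683 to 0.175. In ESC medium its log2 values were -0.06 and -0.09 in mutant and 0.04, 0.17 and 0.07 in control cells (log2 difference -0.17, SE 0.11, adjusted p 0.515). Cox4i1, the 1 member called higher in mutant cells in N2B27, lies on chromosome 8, where the median log2 genotype difference in N2B27 over all 955 genes was 0.17. Of these 955 genes 242 were called higher in N2B27, beside 499 of the 18145 on the other autosomes. As given above, the mutant N2B27 arrays of Cox4i1 do not overlap the control arrays (log2 difference 0.39, SE 0.09, adjusted p 0.0351), and in ESC medium they do (log2 difference 0.13, SE 0.10, adjusted p 0.627). The Cox4i1 call was lost without any 1 control array in N2B27 or without mutant array 2 or 3, at adjusted p-values in limma of up to 0.105. Ndufs4, an accessory subunit whose loss causes a mitochondrial disease in mice, was not called (log2 0.23 ± 0.07, adjusted p 0.0926) but was with sample number as a replicate block (adjusted p 0.0498 in limma).

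**Figure D5:**
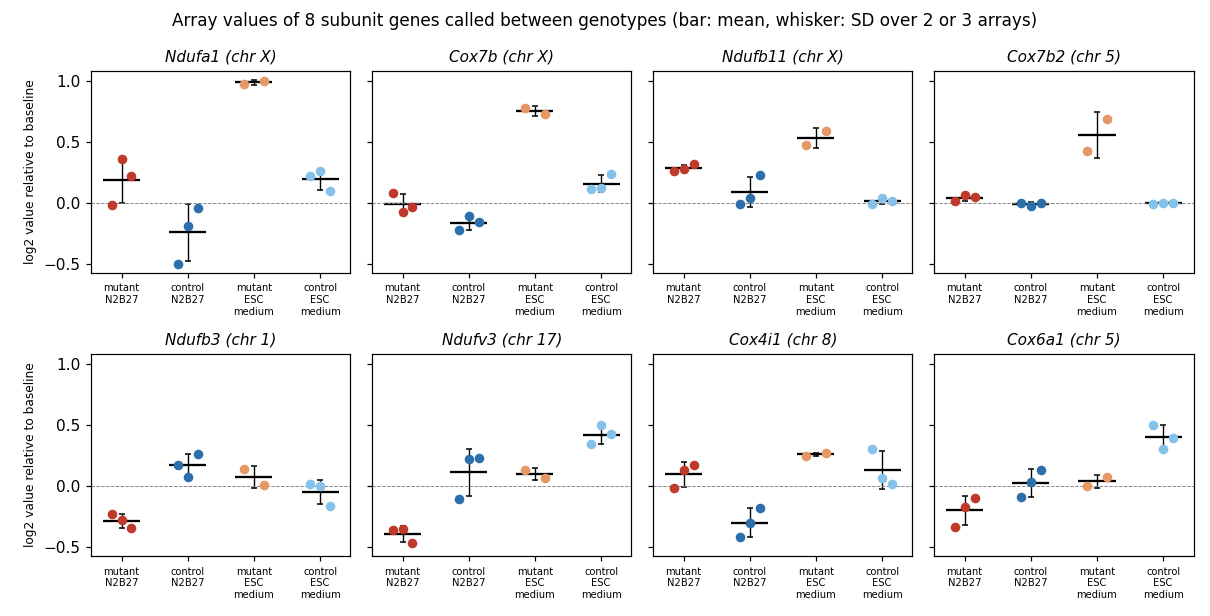
Log2 value, relative to the gene's baseline, on each array for 8 of the 9 subunit genes called between genotypes, with the bar at the group mean and whiskers for the SD over 3 arrays (2 for mutant cells in ESC medium). Ndufa1, Cox7b, Ndufb11 and Cox7b2 stand highest in mutant cells in ESC medium, and Ndufb3 and Ndufv3 stand lowest in mutant cells in N2B27.

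The genotype difference itself differed between media for 3 members, all with a lower value in N2B27 than in ESC medium (4.48% of the 67), and none was higher, while 0.552% of all genes were called lower and 1.57% higher. These were Ndufb3 (log2 difference -0.57, SE 0.11, adjusted p 0.0295), Cox7b2 (log2 difference -0.51, SE 0.10, adjusted p 0.0322) and Cox7b (log2 difference -0.44, SE 0.09, adjusted p 0.0439). For Ndufb3 the mutant was lower than the control in N2B27 and not called in ESC medium, and for Cox7b and Cox7b2 the mutant was higher in ESC medium and not called in N2B27. No such call was made without control ESC medium array 2 or 3, mutant ESC medium array 3, control N2B27 array 1 or 3, or mutant N2B27 array 3, and 1 was left without mutant ESC medium array 2 or control N2B27 array 2. With each of the 2 Cox7b clusters tested alone, the log2 values of this difference were -0.52 (adjusted p 0.0238 in limma) and -0.37 (adjusted p 0.171).

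Genes that build, feed or control the respiratory chain were counted in the same way, beside the 10.3% of all genes called lower and 14.9% called higher in N2B27 in mutant cells and the 13.3% called lower and 12.8% called higher in control cells. Of 45 measured assembly factors, 8 were lower (17.8%) and none was higher in mutant cells, and 13 were lower (28.9%) and 2 were higher in control cells. The mutant share lies not far above that of all genes. They included Sco1, which delivers copper to complex IV (log2 differences -0.63 in mutant and -0.62 in control cells). Of 18 ATP synthase genes, 5 were lower (27.8%) and 1 was higher in mutant cells, and 4 were lower (22.2%) and 1 was higher in control cells. Among them Atp5g1, for the rotating c subunit, had log2 differences of -0.80 in mutant and -0.99 in control cells, and Atp5l, for a membrane subunit, had -0.78 in mutant and -0.92 in control cells. Of 23 genes of the citric acid cycle and pyruvate entry, 6 were lower (26.1%) and 1 was higher in mutant cells, and 7 were lower (30.4%) and 3 were higher in control cells. Mpc1, a subunit of the mitochondrial pyruvate carrier, fell most, by log2 differences of -1.02 in mutant and -0.94 in control cells.

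Of 19 regulators of mitochondrial biogenesis, 7 were lower (36.8%) and 2 were higher in mutant cells, and 7 were lower (36.8%) and 1 was higher in control cells, beside 10.3% of all genes called lower in mutant and 13.3% in control cells. Gabpa, the DNA-binding part of GABP, had log2 values of 0.00, -0.39 and -0.20 in N2B27 and 0.52 and 0.44 in ESC medium in mutant cells, and -0.35, -0.29 and -0.25 in N2B27 and 0.60, 0.28 and 0.41 in ESC medium in control cells. All N2B27 arrays lie below all ESC medium arrays (in mutant cells, log2 difference -0.68, SE 0.12, adjusted p 0.00207; in control cells, log2 difference -0.73, SE 0.11, adjusted p 0.000841). The other GABP genes differed in direction. Within each genotype all N2B27 arrays lie above the ESC medium arrays for Gabpb1 and below them for Gabpb2. Nrf1 was called lower in control cells (log2 difference -0.29, adjusted p 0.0436) and not in mutant cells (-0.14), and Yy1 was called in neither (0.01 in mutant and -0.01 in control cells). Tfb2m, a factor for transcription of mitochondrial DNA, fell in both genotypes (log2 -0.71 in mutant and -0.80 in control cells). Creb1 had the largest called difference of this list in mutant cells and was higher in N2B27 (log2 difference 0.84, adjusted p 0.000369 in limma). Its interaction of genotype and medium was not called (log2 0.65, adjusted p 0.0517 in limma). Of 9 mitochondrial translation factors, 5 were lower in mutant (55.6%) and 6 in control cells (66.7%) and none was higher. The elongation factor Tufm (log2 -0.48 in mutant and -0.60 in control cells) and Gfm2 (-0.48 in mutant and -0.69 in control cells), which acts in ribosome recycling, were among them. Of the genes encoded in mitochondrial DNA, 2 were measured, COX2 and ND3, and neither was called, with log2 differences of -0.11 for COX2 and -0.18 for ND3 in mutant cells and 0.00 for COX2 and -0.15 for ND3 in control cells.

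Between genotypes these lists held few calls, most of them in the citric acid cycle and pyruvate entry list. There 4 of 23 genes were higher in mutant cells in ESC medium (17.4%, while 3.09% of all genes were called higher and 3.05% lower), Idh3g (log2 difference 0.74) and Idh2 (0.51), which encode isocitrate dehydrogenases, Mpc1 (0.59) and Pdk3 (0.46), a kinase that turns pyruvate dehydrogenase off. On the X chromosome 163 of 739 genes were called higher in this comparison, and the part of chromosome in the calls of this list was not tested. In N2B27, 3 of the 23 were higher (while 4.1% of all genes were called higher and 1.64% lower), Mpc1 (0.51), Pcx (0.45), pyruvate carboxylase, and Idh3g (0.43), and Pdk2 was lower (-0.65). Among the assembly factors 2 of 45 were higher and 1 was lower in mutant cells in N2B27. Lrpprc, which stabilises mitochondrial messenger RNAs, was higher there (log2 difference 0.42, SE 0.06, adjusted p 0.00372) and its genotype difference differed between media (log2 difference 0.40, SE 0.09, adjusted p 0.0475). In ESC medium 1 assembly factor, Cmc1, was lower in mutant cells (log2 difference -0.58, SE 0.14, adjusted p 0.0332). No ATP synthase gene was called between genotypes in N2B27, and 1, Atpif1, the inhibitor of ATP synthase, was lower in mutant cells in ESC medium (log2 difference -0.30, SE 0.07, adjusted p 0.0281).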

How the data were processed

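The authors deposited 1 table of log2 values by transcript cluster. Per the submitters' processing notes they used RMA and Affymetrix Expression Console 1.2, and base 2 is assumed because RMA normally returns it. The array's genome build: not given in the sources used here. Each cluster sits on a baseline of its own that no source explains, so brightness and a filter on dim probes were out of reach. Of 28815 clusters, 21780 carry 1 gene symbol and were used, 1605 carry several and 5430 none. Where a gene had several clusters their mean was taken, giving 19935 genes. All 67 members matched the RefSeq gene table of GRCm38.p6, used for names and chromosomes.

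Group means were fitted over all 4 groups in limma 3.58.1 (lmFit and eBayes) under R 4.3.3, on 7 residual and 3.02 prior degrees of freedom. Tests are two-sided, SE is the moderated standard error, and p-values are Benjamini-Hochberg adjusted over all 19935 genes. The fit was checked on simulated data. No pair of arrays held identical values. Precision is limited by how few arrays there are. By sample number, array deviations from group means correlated at 0.256, 0.430 and 0.158 for genotype in N2B27 and at 0.138, 0.181 and 0.131 for medium in control cells. Same-numbered arrays may thus be paired. The main fit held no block, so its SE and p-values leave any pairing out, and sample number entered as an alternative only. The other comparisons have 2 shared numbers, with correlations of 0.037 and 0.284 for genotype in ESC medium and 0.215 and 0.266 for medium in mutant cells. Alternatives were sample number as a replicate block, each array left out, median centring, quantile normalization, array weights, a robust prior, chromosomes 8, X and Y left out, genes with 1 cluster only, each cluster alone, the compared groups alone and, chosen after seeing the data, both N2B27 arrays numbered 1 left out. With each cluster alone, the cluster of a gene with the smallest adjusted p was counted, which favours keeping a call. Genes with several clusters, or on the chromosomes left out, were absent from the alternative concerned. For them, every alternative run means the remaining ones.

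Array values are given for the called members with the largest differences of each comparison (at most 8, and 5 for the interaction) and for 28 further members whatever their values. From each neighbouring list up to 4 called genes with the largest differences qualified to be named. Nrf1, Yy1, Gabpb1 and Gabpb2 were named because promoter letters of NRF1, YY1 and the ETS family, to which GABP belongs, were searched. The members, the gene lists and the markers were chosen with earlier results of these data known. Of the promoters, the first listed per gene was used, with those of chromosome 18 left out.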

Additional observations from a re-analysis of the deposited data

Results flagged for a closer look

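The genotype difference depended on the medium for 3 subunit genes by the interaction term in limma. For Ndufb3 the log2 difference between mutant and control cells was -0.45 in N2B27 and 0.12 in ESC medium, so that the interaction was -0.57 (adjusted p 0.0295). For Cox7b2 the genotype difference was 0.05 in N2B27 and 0.56 in ESC medium, an interaction of -0.51 (adjusted p 0.0322). For Cox7b the genotype difference was 0.15 in N2B27 and 0.59 in ESC medium, an interaction of -0.44 (adjusted p 0.0439). Each adjusted p rose above 0.05 without some single array, and over all alternatives run it reached at most 0.158 for Ndufb3, 0.0971 for Cox7b2 and 0.435 for Cox7b. No group has 4 arrays, so single arrays were not tested for standing apart from their group.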

How the results depend on the processing

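No call on a subunit gene changed sign under any alternative. In limma, leaving out each array in turn gave 3 to 4 called members for genotype in ESC medium (5 with all arrays), 1 to 8 for genotype in N2B27 (4), 9 to 21 for medium in mutant cells (20), 12 to 19 for medium in control cells (23) and 0 to 2 for the interaction (3). Where a group was left with 1 array, that array was assumed to vary like the other groups. Genotype calls in ESC medium numbered 2 with quantile normalization, 8 with array weights, 1 without chromosomes 8, X and Y and 2 among genes with 1 cluster. Genotype calls in N2B27 numbered 13 with array weights, 2 without those chromosomes and 1 with the compared groups alone. Interaction calls numbered 0 with quantile normalization and 1 without both N2B27 arrays numbered 1. With the replicate block the calls numbered 6 for genotype in ESC medium, 6 for genotype in N2B27, 21 for medium in mutant cells, 24 for medium in control cells and 2 for the interaction. For genotype in N2B27 and medium in control cells the replicate block added Ndufa1, Ndufs4 and Uqcr11 and removed no call. In the other comparisons it added Ndufv3 in ESC medium and Cox6b2 and Ndufb5 in mutant cells, and removed Ndufb11 in mutant cells and Cox7b in the interaction. Calls that held under all alternatives were 6 of the 19 lower genes and 0 of the 1 higher gene in mutant cells between media, 9 of the 18 lower and 3 of the 5 higher genes in control cells, 2 of 5 for genotype in ESC medium, 1 of 4 for genotype in N2B27 and 0 of 3 for the interaction. With each array left out in turn, the members' median log2 difference ran from -0.12 to -0.02 for genotype in N2B27 (-0.05 with all arrays, -0.12 without control array 1), from -0.19 to -0.07 for medium in mutant cells (-0.12) and from -0.11 to -0.04 for medium in control cells (-0.09). Without both N2B27 arrays numbered 1, the calls numbered 20 for medium in mutant cells (all lower), 20 for medium in control cells (15 lower) and 4 for genotype in N2B27. The causes of these shifts were not tested. The number of arrays, and the absence of a brightness measure, limit what small differences can show.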

Other observations

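The 3 clusters of Cycs did not move together. With each cluster tested alone in limma, 1 cluster had log2 values of 0.28, 0.17 and 0.18 in mutant cells and -0.16, -0.36 and -0.14 in control cells in N2B27, and -0.19 and -0.42 in mutant cells in ESC medium. Its log2 values in control cells in ESC medium spread widely, at 0.13, -0.11 and -0.46. In N2B27 its mutant arrays lie above all control arrays (log2 difference 0.43, adjusted p 0.098), while the other clusters of Cycs gave log2 differences of -0.15 and -0.10.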
